A study of Mus musculus with 17 samples.

Results

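The WT course compared ventricular cardiomyocytes before and after 8 h of actinomycin D. Its members were chosen by label: 3 libraries from wild-type mice harvested at 0 h and 3 harvested at 8 h, 6 of the 17 libraries of the series. They were described across the 13230 genes with enough counts to be tested, of 55487 in the count table. Actinomycin D is a DNA-binding drug that stops RNA polymerases. A drug-treated cell makes little RNA, so its transcripts are lost at the pace of their own decay. The study used it to measure transcript stability with and without MBNL1, a muscleblind RNA-binding protein. Myocytes came from 60-day-old mice by enzyme perfusion of the heart, were plated on laminin for 3 h in medium with serum and the contraction blocker BDM, and then received the drug at 2 µg/mL in medium with BDM and albumin. The 0 h libraries are the baseline. All groups shared isolation and plating, the 4 and 8 h groups shared the drug, and no library of untreated cells at 4 or 8 h was analysed here, so the effects of the drug and of hours in culture cannot be told apart. The WT libraries at 4 h (2 libraries) and the libraries labelled MBNL1 loss-of-function (KO) at 0 and 8 h (3 each) are used beside the WT course. Whether each replicate was its own animal is not in the labels, so p-values measure the spread between these libraries, which may be technical.

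Values are CPM, read counts scaled to library size with TMM factors, so each is a transcript's share of its library. A gene that is lost more slowly than the others gains share while all transcripts fall, and a log2 fold change near 0 marks a gene that moved with the average. Transcript stability differs widely between gene classes. Messengers for structural proteins, ribosomal proteins and metabolic enzymes are generally long-lived in cells, while those for transcription factors, cytokines and signalling inhibitors are often short-lived, many carrying AU-rich elements in the 3′ UTR that recruit decay factors. WT libraries held 17059736 to 17612131 gene counts at 0 and 8 h, and 35.8 to 41.8% of these plain counts were mitochondrially encoded. The first principal component of these 6 libraries held 73.0% of the variance and set the 3 libraries at 0 h apart from the 3 at 8 h. Mbnl1 counts over the whole gene were not lower under that label: 99.9 ± 5.36 CPM at 0 h and 104 ± 3.02 CPM at 8 h, against 87.4 ± 1.29 and 86.8 ± 1.23 CPM in WT (SD, n = 3). The labels do not say which part of the gene was changed, and a deletion that leaves other exons would not be checked by these counts, so KO below means the libraries labelled KO.

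After 8 h, 3314 genes were higher in share (25% of those tested) and 3546 were lower (26.8%), in edgeR's quasi-likelihood test with Benjamini-Hochberg adjustment at 0.05. The sizes were uneven. The share of 1151 genes was more than 2-fold lower (8.7% of those tested) and that of 61 was more than 2-fold higher (0.461%). The median log2 fold change of all tested genes was -0.03, with quartiles of -0.37 and 0.23. For 7448 genes (56.3% of those tested) the libraries at 0 h and those at 8 h did not overlap. Change and abundance went together. Under a mean log2 CPM of 3, 1059 of the 6381 genes were more than 2-fold lower (16.6%), against 92 of the 6849 at or above it (1.34%). This mean was taken over the WT libraries at 0 and 8 h, so the change itself enters it. A loss lowers a gene's mean and a gain raises it. Of the 316 nuclear genes with a mean log2 CPM of at least 8, 276 were higher and 5 lower. The direction of small changes depends on scaling. Library size alone in place of TMM moved the median gene by -0.21, which left 1279 genes higher and 5887 lower, and scaling to the summed ribosomal protein counts moved it by -0.66, which left 50 higher and 11268 lower. Every direction below is relative to the other transcripts under TMM.

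**Figure D1:**
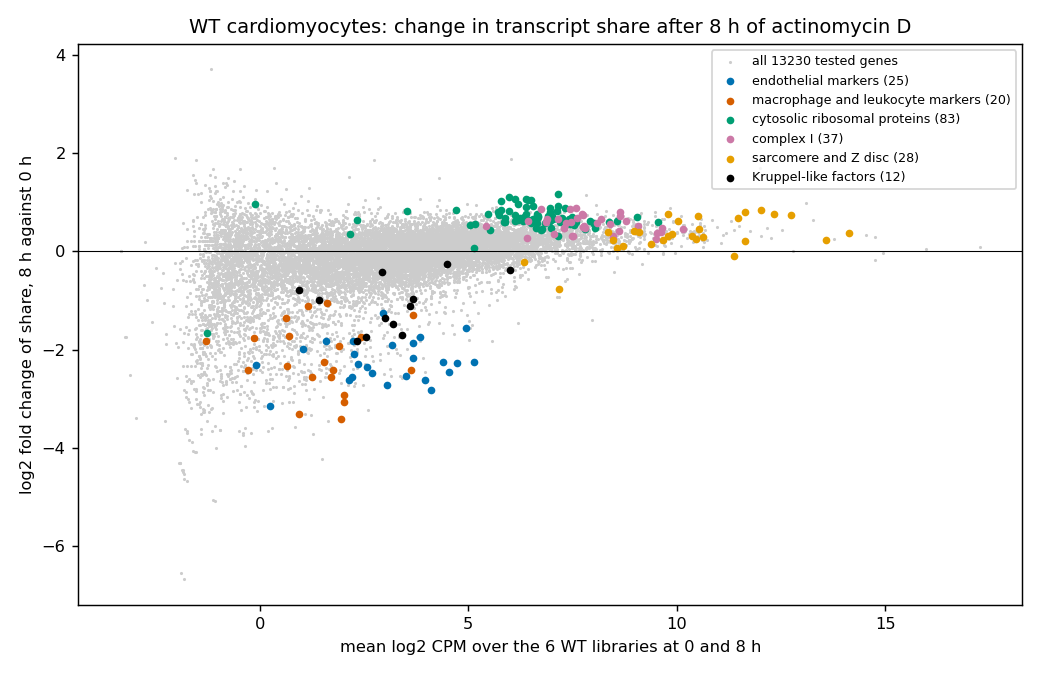
Each point is 1 of the 13230 tested genes, with its mean log2 CPM over the 6 WT libraries on the x axis and its log2 fold change (8 h against 0 h) on the y axis. Colours mark 6 gene lists: the endothelial and macrophage markers lie below 0, most ribosomal protein and complex I genes above it, and abundant sarcomere genes near or above it.

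The cardiomyocyte label held in the counts. Myh6, the adult ventricular myosin heavy chain, stood at 14419.5, 16651 and 16132 CPM in the 3 libraries at 0 h and 18081, 20474 and 22639.6 CPM at 8 h. The lowest of the 6 libraries held 2953 CPM of Tnnt2 (cardiac troponin T), 3711 CPM of Myl2 (a ventricular myosin light chain) and 1457 CPM of Ryr2 (the calcium release channel). Markers of other heart cells were present at low levels at 0 h, and the endothelial, macrophage and erythroid lists had the lowest medians of the 52 lists. All 25 tested endothelial markers were lower, each more than 2-fold, with a median log2 fold change of -2.28. Their summed level was 593 to 639 CPM at 0 h and 130.3 to 144 CPM at 8 h. All 20 macrophage and leukocyte markers were also more than 2-fold lower, with a median of -2.28 and a summed level of 141 to 165 CPM at 0 h and 30.2 to 38.6 CPM at 8 h. The 4 tested erythroid and platelet markers were lower with a median of -2.18. Of 18 tested fibroblast and matrix markers, 0 were higher, 16 lower and 2 not called, with a median of -0.74. Of 9 tested pericyte and smooth muscle markers, 1 was higher, 8 lower and 0 not called, with a median of -0.65. Among all tested genes 26.8% were lower. In these bulk libraries, fewer cells of a type and less RNA per cell cannot be told apart.

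Tie1, an endothelial receptor kinase (ENSMUSG00000033191, GRCm38 chromosome 4, 118471191 to 118490061, reverse strand), stood at 21.7, 22.5 and 19.8 CPM at 0 h, 5.11 and 4.51 CPM in the 2 libraries at 4 h and 4.08, 3.09 and 2.46 CPM at 8 h. Most of its loss was present by 4 h, and no library at 8 h came near one at 0 h. It was 6.63-fold lower (log2 fold change -2.73 ± 0.12, adjusted p = 1.72e-29 by edgeR). Cd93, a lectin-like receptor of endothelium, went from 21.3, 22 and 20.3 CPM to 4.02, 4 and 2.87 CPM (log2 fold change -2.54 ± 0.11, adjusted p = 3.43e-30). Cdh5, the cadherin of endothelial junctions, went from 43.6, 46.6 and 45.8 CPM to 9.58, 8.98 and 10.1 CPM, a level 21.1% of that at 0 h. The tight-junction gene Cldn5 had the lowest fold change of the list, at -3.14 ± 0.28, from 3.25, 3.51 and 2.68 CPM. At the other end was Vwf, the clotting factor stored by endothelium, at -1.26 ± 0.11. Its libraries stood at 4.94 and 5.37 CPM at 4 h and 4.91, 5.32 and 4.62 CPM at 8 h, close to each other and well under the 12.4, 12 and 11.2 CPM at 0 h.

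Among macrophage markers, F13a1 (a coagulation factor subunit made by resident macrophages) stood at 10.7, 13.3 and 11.9 CPM at 0 h and 1.24, 0.972 and 1.17 CPM at 8 h, 10.6-fold lower (log2 fold change -3.40 ± 0.16, adjusted p = 1.12e-27 by edgeR). Csf1r, the receptor for macrophage colony-stimulating factor, went from 9.42, 13.1 and 11.6 CPM to 1.36, 1.31 and 1.4 CPM (8.33-fold lower). Cd163, a haemoglobin scavenger receptor, was 9.9-fold lower. Cd68, a lysosomal glycoprotein of macrophages, had the smallest change of the list: 4.49, 3.61 and 4.59 CPM at 0 h, 3.44 and 3.66 CPM at 4 h and 2.07, 1.77 and 2.28 CPM at 8 h. Its 4 h libraries overlapped those at 0 h, and its 8 h libraries lay below both. Collagen genes followed the same direction in the fibroblast list. Col3a1 went from 5.9, 5.89 and 5.5 CPM to 1.77, 1.49 and 1.11 CPM, 3.94-fold lower. Acta2, smooth muscle actin, was called higher at 0.17 with overlapping libraries, but the call was lost without WT 0 h replicate 1 (adjusted p = 0.0721 by edgeR) or WT 8 h replicate 3 (adjusted p = 0.0722). Its log2 fold change was -0.047 under scaling by library size.

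Transcription factors and signalling regulators lost share in most lists. Of 29 tested immediate early genes, which respond to stimulation without new protein synthesis, 24 were lower and 1 was higher, with a median log2 fold change of -0.85. All 12 tested Krüppel-like factors, a family of zinc finger transcription factors, were lower (median -1.06). So were 17 of 24 NF-κB targets (median -0.98), 22 of 29 interferon-response and antigen-presentation genes (median -0.86), and 14 of 18 Dusp and Sprouty genes, which restrain MAP kinase signalling (median -0.44). Across all tested genes 26.8% were lower, and in the second-lowest quintile of abundance 37%. Of the NF-κB targets 3 were higher. The summed level of that list was 693 to 718 CPM at 0 h and 858 to 867 CPM at 8 h, a gain. Endothelial and macrophage marker genes moved with these lists, with medians at 20.6 and 20.5% of the 0 h level, and many of these regulators are also made by such cells. The part of those cells in the result was not tested.

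Socs3, an inhibitor of cytokine receptor signalling (ENSMUSG00000053113, GRCm38 chromosome 11, 117966079 to 117970047, reverse strand), stood at 56.9, 64.4 and 61.6 CPM at 0 h, 15.1 and 14.9 CPM at 4 h and 17.3, 17 and 17.8 CPM at 8 h. It reached its low level by 4 h and was not lower still at 8 h (log2 fold change -1.81 ± 0.07, adjusted p = 3.59e-33 by edgeR for 8 h against 0 h). Myc, a growth-promoting transcription factor (ENSMUSG00000022346, GRCm38 chromosome 15, 61985391 to 61990374, forward strand), had the same course: 11.5, 11.9 and 12.5, then 3.16 and 2.69, then 2.9, 3.14 and 3.22 CPM (log2 fold change -1.95 ± 0.13, adjusted p = 4.13e-21). Gadd45g, a stress-response gene, went from 26.9, 24.6 and 23.3 CPM to 7.17 and 5.6 CPM at 4 h and 7.51, 6.8 and 8.14 CPM at 8 h. Others were still going down between 4 and 8 h. The cytokine gene Tnf (ENSMUSG00000024401, GRCm38 chromosome 17, 35199381 to 35202007, reverse strand) went from 5.84, 7.72 and 7.08 CPM to 1.89 and 1.54 CPM at 4 h and 0.71, 0.686 and 0.644 CPM at 8 h, 10.1-fold lower over the course (log2 fold change -3.33 ± 0.20, adjusted p = 3.45e-22). Id2, an inhibitor of helix-loop-helix transcription factors, went from 20.8, 20 and 27.5 CPM through 11.8 and 7.83 CPM to 5.09, 5.15 and 7.08 CPM. Zfp36, which encodes the decay factor tristetraprolin, stood at 40.6, 42.1 and 39.8 CPM at 0 h, 21.7 and 20.8 CPM at 4 h and 14.8, 15.7 and 12.9 CPM at 8 h.

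Some well-known immediate early genes kept most of their share. Fos, a subunit of the AP-1 transcription factor (ENSMUSG00000021250, GRCm38 chromosome 12, 85473890 to 85477273, forward strand), stood at 75.8, 76.7 and 74.4 CPM at 0 h, 71.6 and 69.6 CPM at 4 h and 69, 74.9 and 72.6 CPM at 8 h. Its libraries at 0 and 8 h overlapped, and its log2 fold change was -0.07 ± 0.05 (adjusted p = 0.307 by edgeR). Jun, the partner of Fos, was lower by a small amount, at 86% of its 0 h level, and Egr1 (an early growth response zinc finger factor) was at 78.8%, from 182, 198 and 171 CPM to 144, 149 and 141 CPM. The relatives Junb at 56.2% and Atf3 at 50.1% lost more. Maff, a basic leucine zipper factor, was the 1 gene of the list called higher, from 6.93, 6.09 and 5.55 CPM to 8.93, 6.8 and 7.32 CPM with overlapping libraries. Its log2 fold change of 0.32 ran from 0.19 to 0.40 when each WT library was left out, the call was lost without WT 0 h replicate 3 (adjusted p = 0.102) and without WT 8 h replicate 1 (adjusted p = 0.209), and it turned to -0.35 with ribosomal protein scaling. In the p53 and Gadd45 list, Gadd45a was higher, from 22.7, 23.6 and 24.6 CPM to 38, 37.8 and 40.9 CPM (log2 fold change 0.72 ± 0.06, adjusted p = 6.95e-15), opposite to Gadd45g.

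AU-rich 3′ UTR sequence was present both in genes that lost share and in genes that held it. The windows here, 29 bases each from the GENCODE M21 transcripts on GRCm38, are those with the most matches to TATTTAT in the gene's 3′ UTR. They are written as DNA, 5′ to 3′ along the transcript, with matches in capitals.
Tnf: TATTTATTATTTATTTATTATTTATTTAT
Cxcl2: tTATTTATTTATctatgTATTTATTTATt
Zfp36: ccttTATTTATgacgacttTATTTATtgt
Ier3: taattaaTATTTATgTATTTATgtatatc
Socs3: tgcacataTATTTATATTTATactcagaa
Fos: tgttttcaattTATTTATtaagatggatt
Maff: ttccacactctTATTTATtgcacgaatct
The Tnf window (chr17:35199678-35199706, reverse strand) holds 5 matches, some of which overlap, of 8 in its 3′ UTR, and the Cxcl2 window (chr5:90905326-90905354, forward strand) holds 4 of 7. Those of Zfp36 (chr7:28376959-28376987, reverse strand), Ier3 (chr17:35822485-35822513, forward strand) and Socs3 (chr11:117966136-117966164, reverse strand) hold 2 each. Fos (chr12:85477103-85477131, forward strand) and Maff (chr15:79358778-79358806, forward strand) hold 1 in the window and 2 in the 3′ UTR, as many as Socs3. Cxcl2, a neutrophil chemokine, was at 25% and Ier3, an early response gene, at 45.4% of the 0 h level, beside 28.5% for Socs3, 35.5% for Zfp36, 95.5% for Fos and 124% for Maff. At least 1 match on the transcript strand was in 29% of the 3′ UTRs of tested coding genes. These 7 genes were chosen after their values were seen, and a match is a description of the sequence, not a measured decay site.

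**Figure D2:**
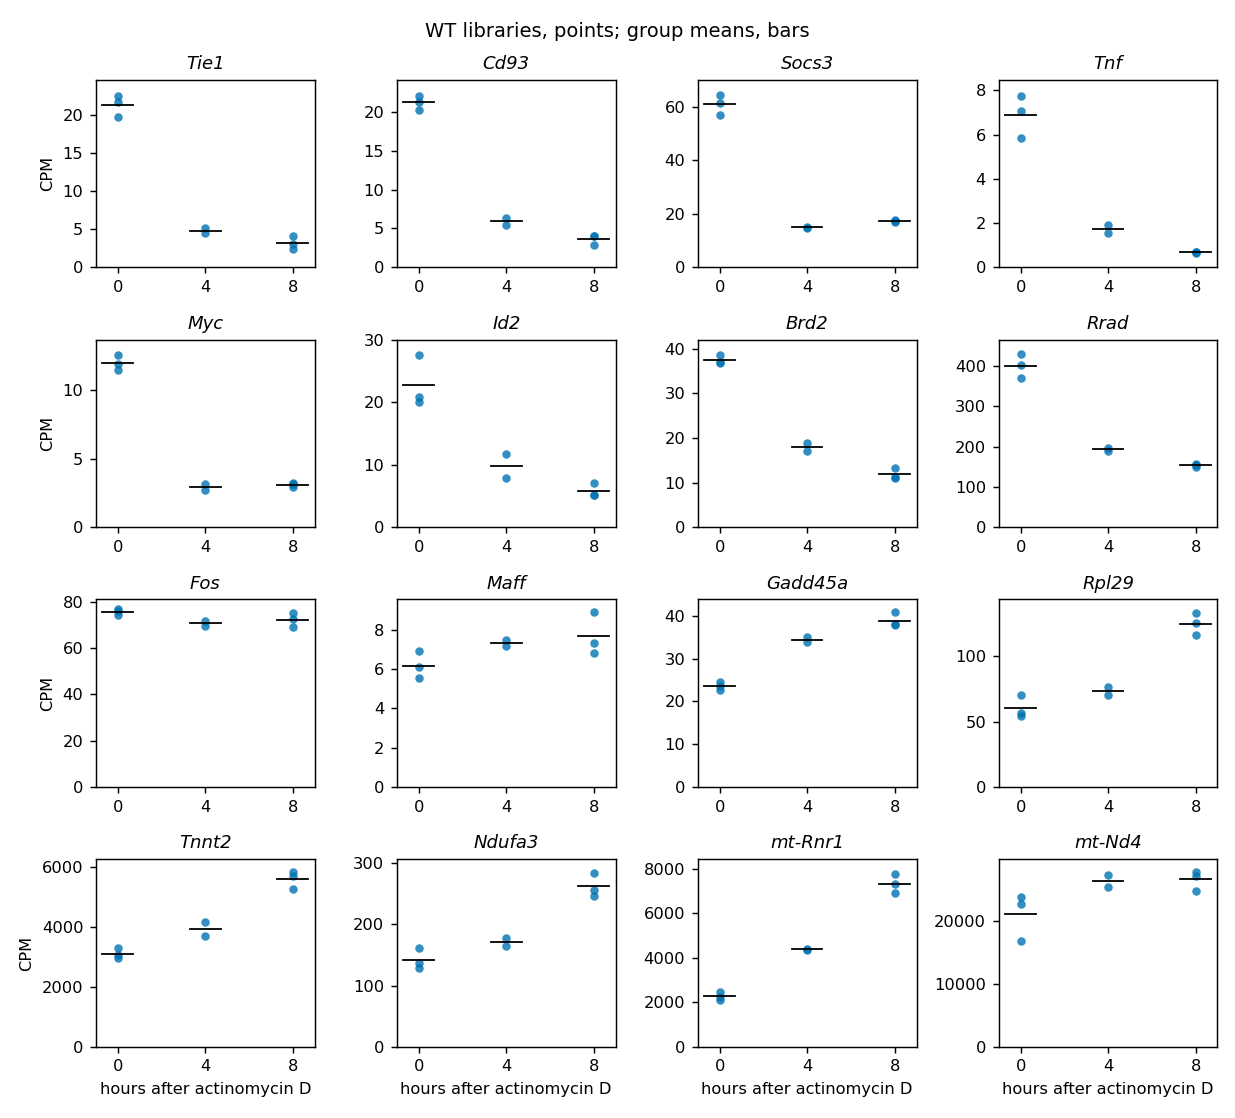
CPM (y axis, linear from 0) against hours after actinomycin D (x axis) for 16 genes; points are WT libraries (3, 2 and 3) and bars are group means. Socs3 and Myc were at their low level by 4 h, Tnf, Id2 and Brd2 went on down, Fos held, and Rpl29, Tnnt2 and Ndufa3 had most of their gain after 4 h.

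Of 36 chromatin regulators, which write and read histone marks, 2 were higher, 30 lower and 4 not called (83.3% lower, against 26.8% of all tested genes, median log2 fold change -0.32). Brd2, a bromodomain reader of acetylated histones (ENSMUSG00000024335, GRCm38 chromosome 17, 34112023 to 34122634, reverse strand), stood at 37, 38.7 and 36.9 CPM at 0 h, 17.1 and 18.9 CPM at 4 h and 13.3, 11 and 11.2 CPM at 8 h (log2 fold change -1.66 ± 0.08, adjusted p = 3.89e-28 by edgeR). Kdm6b, a histone H3K27 demethylase, was at 46.1% of its 0 h level. Of 315 Zfp genes, a class of zinc finger proteins that includes many transcriptional repressors, 17 were higher, 109 lower and 189 not called, with a median of -0.26. That is 34.6% lower, against 26.8% of all tested genes and 37% of those in the second-lowest quintile of abundance. Of 38 genes of the transcription machinery, 10 were higher, 14 lower and 14 not called (26.3% higher and 36.8% lower, against 25% and 26.8% of all tested genes), and under scaling by library size the numbers higher and lower were 5 and 23, and with ribosomal protein scaling 0 and 33. Polr2f, a small subunit of the RNA polymerases, was higher (18.5, 19.7 and 18.6 CPM to 36.3, 32.9 and 28.3 CPM, log2 fold change 0.78). Ccnt1, the cyclin of the elongation factor P-TEFb, and Aff1, a super elongation complex scaffold, were lower at 56 and 62.4% of the 0 h level.

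Of 28 AU-rich element and stability factors, which act on messenger decay, 2 were higher, 14 lower and 12 not called (median -0.23). That is 7.14% higher and 50% lower, against 25% and 26.8% of all tested genes. Under scaling by library size the numbers higher and lower were 2 and 23, and with ribosomal protein scaling 0 and 26. Zfp36l2, a relative of tristetraprolin, was at 31.3% of the 0 h level, near Zfp36 at 35.5%, while the cold-shock protein gene Ybx1 rose from 426, 434 and 437 CPM to 757, 699 and 713 CPM (log2 fold change 0.74 ± 0.04, adjusted p = 4.42e-24 by edgeR) and Ybx3 rose by 0.64. Ybx3 turned to a log2 fold change of -0.022 with ribosomal protein scaling. Among 16 MBNL, CELF, RBFOX and other cardiac splicing genes, 1 was higher, 4 lower and 11 not called. That is 6.25% higher and 25% lower, against 25% and 26.8% of all tested genes. Under scaling by library size the numbers higher and lower were 0 and 13, and with ribosomal protein scaling 0 and 15. Mbnl1 itself had overlapping libraries at 0 and 8 h and a log2 fold change of -0.01 ± 0.05 (adjusted p = 0.876). Mbnl2 had 0.08 ± 0.05 (adjusted p = 0.162). Polypyrimidine tract binding proteins, which repress muscle exons, were lower: Ptbp3 at 36.3% and Ptbp1 at 44.8% of the 0 h level.

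Genes of the mitochondrion and of the ribosome gained share together, each by a modest amount. All 37 nuclear complex I genes were higher with a median log2 fold change of 0.53 (-0.14 with ribosomal protein scaling), as were all 39 nuclear genes of complexes II to V with a median of 0.50 (-0.16) and all 23 genes of pyruvate entry and the citric acid cycle with 0.50 (-0.17). Of 29 genes of fatty acid uptake and oxidation, the main fuel route of the heart, 24 were higher, 3 lower and 2 not called (median 0.44, -0.23 with ribosomal protein scaling). Creatine kinases and ATP carriers had 12 of 13 higher (median 0.40, -0.26 with that scaling), and of 26 glycolysis and glycogen genes, 18 were higher, 2 lower and 6 not called (median 0.32, -0.35 with it). Of all tested genes 25% were higher, and of the 316 nuclear genes with a mean log2 CPM of at least 8, 276 were.

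Ndufa3, a small subunit of complex I (ENSMUSG00000035674, GRCm38 chromosome 7, 3617373 to 3620327, forward strand), rose the most in its list, from 161, 129 and 137 CPM to 284, 257 and 247 CPM (log2 fold change 0.89 ± 0.12, adjusted p = 5.21e-05 by edgeR). Its 4 h libraries stood at 165 and 178 CPM, nearer to 0 h than to 8 h. Ndufa9, an accessory subunit, rose the least, to 119.8% of its 0 h level, a call lost with library size alone (adjusted p = 0.444 by edgeR), and turned with ribosomal protein scaling (log2 fold change -0.40). Atp5e, a small subunit of ATP synthase, rose from 151, 119 and 113 CPM to 248, 237 and 226 CPM. In fatty acid oxidation, Acaa2, the mitochondrial thiolase, rose from 669, 568 and 659.7 CPM to 1042, 946 and 1018 CPM. Other members went the other way: Cpt1a, an isoform of the carnitine transferase that admits fatty acids to mitochondria, was at 77.8% and Ucp3, an inner-membrane carrier, at 79.9% of the 0 h level. In glycolysis the enzyme gene Tpi1 rose from 471, 415 and 415 CPM to 766, 721 and 743 CPM (log2 fold change 0.78 ± 0.04, adjusted p = 5.97e-23), while Pfkfb1, which sets the level of a glycolytic activator, fell to 40.8%.

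Cytosolic ribosomal protein genes had the highest median of the lists of nuclear genes, 0.66. Of 83 tested genes, 81 were higher, 1 lower and 1 not called (97.6% higher, against 25% of all tested genes). Among the shortest coding genes of the most abundant quintile 92.3% were higher, with a median of 0.45. Scaling to the summed counts of the ribosomal protein genes sets their own median to 0.00 by construction. Their summed level was 7932 to 8334 CPM at 0 h and 12221 to 13676 CPM at 8 h. Rpl29 (ENSMUSG00000048758, GRCm38 chromosome 9, 106429454 to 106431568, forward strand) stood at 56.9, 54.1 and 70.6 CPM at 0 h, 70.7 and 76.7 CPM at 4 h and 133, 116 and 126 CPM at 8 h, 2.06-fold higher (log2 fold change 1.04 ± 0.10, adjusted p = 9.12e-07 by edgeR). Rpl27 rose 2.04-fold and Rpl36 1.95-fold, and their libraries at 0 and 8 h did not overlap, as held for 56.3% of tested genes. Most of the gain came after 4 h: the list's median was 0.17 at 4 h. Rps27a was the lowest called gain at 0.32, a call lost with library size alone (adjusted p = 0.18 by edgeR). Rps10 was the exception at -1.67, with under 1 CPM in each library, and without WT 8 h replicate 2 its call was lost (adjusted p = 0.0631). Many ribosomal protein genes have near-identical pseudogene copies, so values of single genes are uncertain where reads could be split or discarded. Eif1, which helps select the start codon, rose from 208, 188 and 184 CPM to 395, 366 and 360.3 CPM, and 37 of 44 translation factors were higher (median 0.37, -0.30 with ribosomal protein scaling). Eef1a1, an elongation factor, was lower at 86.4%.

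Mitochondrial ribosomal protein genes had 72 of 77 higher and none lower (median 0.39, -0.28 with ribosomal protein scaling), from 0.16 for Mrpl11, which turned to -0.048 with library size alone, to 0.88 for Mrps21. Of 43 proteasome genes, 35 were higher, 2 lower and 6 not called (median 0.34, -0.32 with ribosomal protein scaling). Among all tested genes 25% were higher and 26.8% lower. In the most abundant quintile of coding genes 67.6% were higher, and among the shortest genes of the next quintile 74.9%. The 2 lower proteasome genes were Psmb9 and Psmb8, the interferon-inducible catalytic subunits, at 32.2 and 41% of the 0 h level. Outside these lists, Anapc13, a subunit of the anaphase-promoting complex, rose from 24.9, 21.6 and 20.5 CPM to 45.7, 42.2 and 42.9 CPM, and Pdcd5 from 27.1, 23.3 and 27.9 CPM to 53.8, 43.7 and 54 CPM.

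Of 28 sarcomere and Z disc genes, 24 were higher, 2 lower and 2 not called. The share higher, 85.7%, was near the 87.3% of nuclear genes with a mean log2 CPM of at least 8, and under scaling by library size the numbers higher and lower were 13 and 3, and with ribosomal protein scaling 2 and 20. The list's log2 fold changes had a median of 0.33 (-0.33 with ribosomal protein scaling), and their summed level was 60482 to 64793 CPM at 0 h and 83196 to 90626 CPM at 8 h. Tnnt2 (ENSMUSG00000026414, GRCm38 chromosome 1, 135836354 to 135852260, forward strand) rose from 2953, 3289.8 and 3077 CPM to 5682, 5272 and 5815 CPM (log2 fold change 0.85 ± 0.05, adjusted p = 3.5e-16 by edgeR), and its 4 h libraries lay between, at 3700.2 and 4169.7 CPM. Myl2 rose 1.69-fold and Tpm1 (tropomyosin) 1.67-fold. Outside the list, Mb, the oxygen store myoglobin, rose 1.56-fold. Myh6 rose 1.3-fold, but the call was lost with library size alone (adjusted p = 0.171 by edgeR). The giant protein gene Ttn did not pass the test, with -0.09 ± 0.20 (adjusted p = 0.732). Xirp1, an intercalated disc protein gene, was lower in every 8 h library (188, 196 and 181 CPM to 106, 114 and 112 CPM, log2 fold change -0.77 ± 0.05, adjusted p = 8.04e-23), and Synpo2l, another Z disc gene, was at 85.9%. Of 18 calcium-handling genes, 10 were higher, 3 lower and 5 not called (median 0.17, -0.05 with library size alone). That is 55.6% higher and 16.7% lower, against 25% and 26.8% of all tested genes. In the most abundant quintile of coding genes it was 67.6 and 9.15%. Under scaling by library size the numbers higher and lower were 5 and 6, and with ribosomal protein scaling 0 and 16. S100a1, a calcium sensor, rose 1.66-fold. Jph2, which tethers the sarcoplasmic reticulum to the T-tubule, was lower at 73%, and Ryr2 had 0.09 ± 0.06 (adjusted p = 0.219).

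Of 16 tested fetal and stress genes, 5 were higher, 5 lower and 6 not called. That is 31.25% each way, against 25% higher and 26.8% lower of all tested genes. Under scaling by library size the numbers higher and lower were 4 and 9, and with ribosomal protein scaling 0 and 12. Acta1, skeletal actin, rose from 266, 257 and 268 CPM to 422, 416 and 418 CPM. Nppa, the atrial natriuretic peptide gene, rose to 125% of its 0 h level, a call lost with library size alone (adjusted p = 0.104), while Nppb had -0.02 ± 0.07 (adjusted p = 0.857 by edgeR). Tpm4, a non-muscle tropomyosin, was 3.11-fold lower. Of 22 ion channel and gap junction genes, 8 were higher, 8 lower and 6 not called (36.4% each way, against the same 25% and 26.8%). Under scaling by library size the numbers higher and lower were 2 and 14, and with ribosomal protein scaling 0 and 22. Kcna5, a voltage-gated potassium channel, was 6.16-fold lower from 3.9, 3.76 and 3.59 CPM, and Kcnip2, which accompanies the transient outward channel, rose to 131%. Of 21 cardiac transcription factors, 3 were higher, 8 lower and 10 not called (14.3% higher and 38.1% lower, against the same 25% and 26.8%). Under scaling by library size the numbers higher and lower were 1 and 15, and with ribosomal protein scaling 0 and 21. Gata6 was at 68.2% and Gata4 at 82.9% of the 0 h level, Mef2a had 0.05 ± 0.05 (adjusted p = 0.421), and Hopx, a homeodomain-only cofactor, rose to 139%.

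Among called genes whose libraries did not overlap, the 8 largest losses in CPM were those of Rrad, Tuba4a, Lbh, Slc38a2, Txnip, Xirp1, mt-Tn and Neat1. Rrad, a Ras-like GTPase that limits L-type calcium current (ENSMUSG00000031880, GRCm38 chromosome 8, 104628070 to 104631327, reverse strand), stood at 371, 404 and 430.1 CPM at 0 h, 189.5 and 197 CPM at 4 h and 158, 155 and 149 CPM at 8 h (log2 fold change -1.39 ± 0.05, adjusted p = 1.98e-35 by edgeR). Slc38a2, an amino acid transporter, went from 196, 199 and 202 CPM through 153 and 150.2 CPM to 98, 105 and 109.9 CPM. Txnip, a glucose-responsive inhibitor of thioredoxin, and its relative Arrdc3 went to 52.8 and 42.6% of the 0 h level, in a list where 23 of 31 antioxidant and metallothionein genes were higher (14 with library size alone, median 0.28, -0.38 with ribosomal protein scaling). Mt2, a metallothionein, rose from 13.6, 12.1 and 10.7 CPM to 23, 19.8 and 20.2 CPM. Tuba4a, an alpha-tubulin, was at 74.4% and Lbh, a transcriptional cofactor of heart and limb, at 84.1%. The nuclear long noncoding RNA Neat1 was at 66.1%, and Malat1, which lies beside it in the genome, had 0.17 ± 0.21 (adjusted p = 0.551). Angptl4, a secreted inhibitor of lipoprotein lipase, and Ltbp4, a TGF-β binding matrix protein, were 5.26-fold and 4.53-fold lower. Of 30 heat shock and cochaperone genes, 17 were higher, 5 lower and 8 not called. That is 56.7% higher and 16.7% lower, against 25% and 26.8% of all tested genes. In the most abundant quintile of coding genes it was 67.6 and 9.15%. Under scaling by library size the numbers higher and lower were 8 and 11, and with ribosomal protein scaling 0 and 29. The inducible chaperone gene Hspa1a was 3.25-fold lower, and Hspb1, a small heat shock protein gene abundant in heart, rose to 161%.

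Transcripts of the mitochondrial genome split by class. Both ribosomal RNAs rose: mt-Rnr2 went from 6684, 6102 and 5919 CPM to 13209, 11439 and 12187 CPM (log2 fold change 0.98 ± 0.05, adjusted p = 3.93e-25 by edgeR), and mt-Rnr1 was 3.23-fold higher. Of 16 tested tRNA genes, 1 was higher, 14 lower and 1 not called (median -1.44). mt-Tn, the asparagine tRNA, went from 143, 126 and 94.9 CPM to 46.6, 45.6 and 40 CPM, and mt-Tp, the proline tRNA, was the exception, rising from 136, 104 and 96.3 CPM to 197, 179.9 and 202 CPM. The 13 messengers had a median of 0.01, and 2 were higher, 0 lower and 11 not called. That is 15.4% higher, against 25% higher and 26.8% lower of all tested genes. Under scaling by library size the numbers higher and lower were 1 and 4. They were 0 and 5 with the library size of nuclear genes, and 0 and 8 with ribosomal protein scaling. mt-Co1, the most abundant, stood at 169954, 148612 and 138773 CPM at 0 h and 164414, 159319 and 161512 CPM at 8 h, overlapping (0.09 ± 0.06, adjusted p = 0.2). mt-Nd4 was called higher at 0.33, but the call was lost with the replicate number as a block (adjusted p = 0.0679 by edgeR) and without WT 0 h replicate 3 (adjusted p = 0.125), WT 8 h replicate 1 (0.124), WT 8 h replicate 2 (0.0511) or WT 8 h replicate 3 (0.107). It turned to -0.34 with ribosomal protein scaling. Nuclear copies of mitochondrial sequence share reads with these genes, and tRNAs are shorter than most library fragments, so their values are uncertain.

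**Figure D3:**
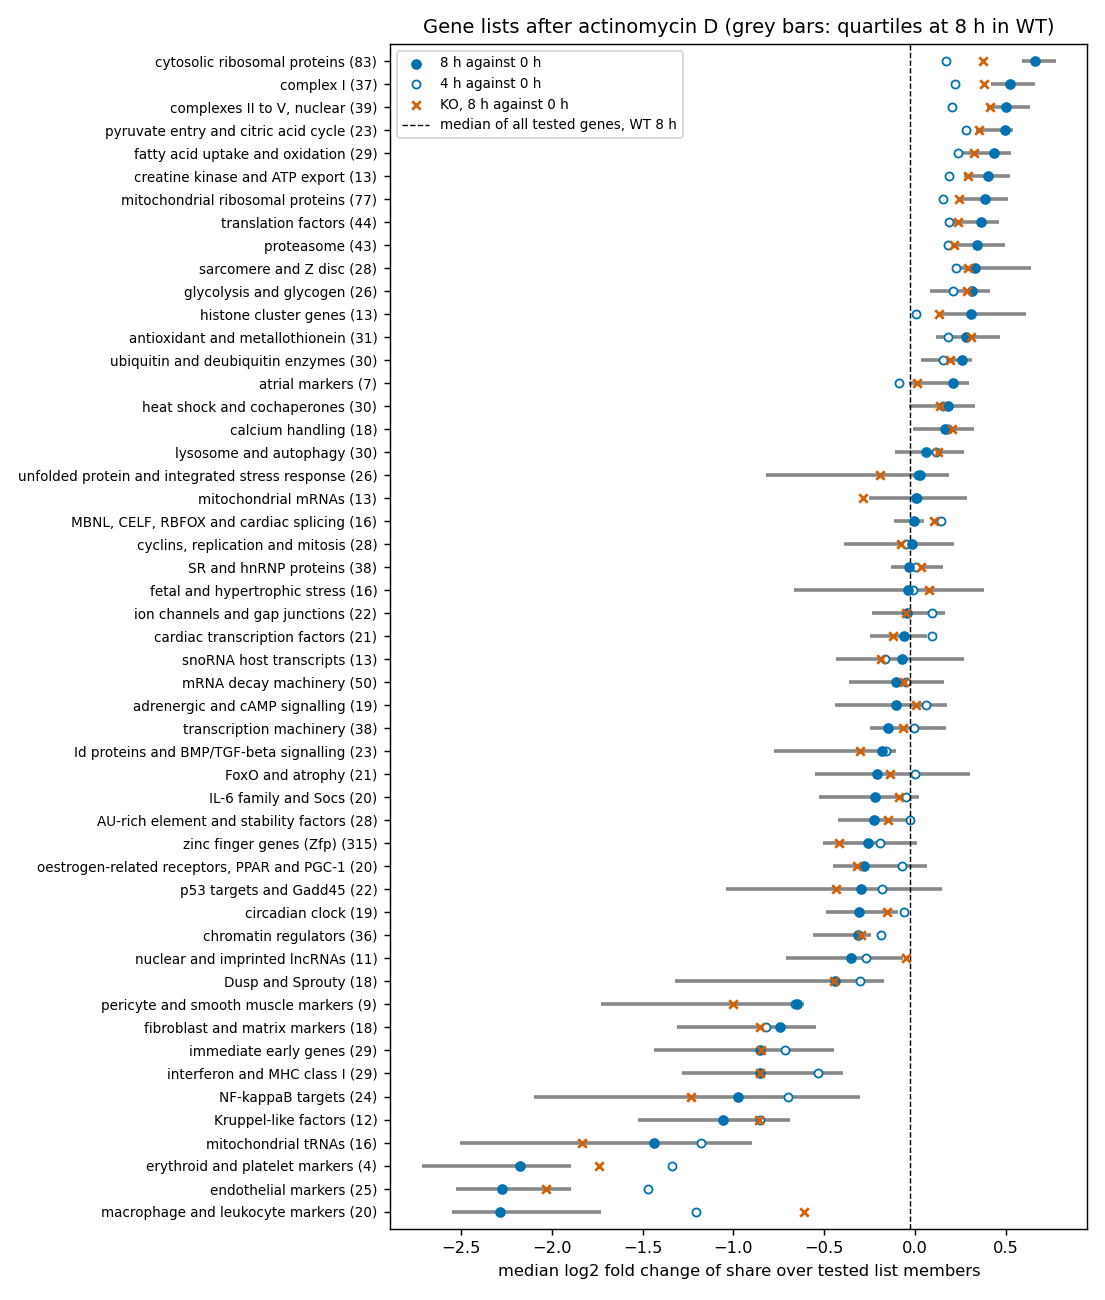
Median log2 fold change (x axis) of the tested members of 51 gene lists (rows, tested members in brackets); filled points are WT at 8 h, open points WT at 4 h, crosses KO at 8 h, all against their own 0 h, and grey bars the quartiles in WT at 8 h. Lists range from -2.28 for macrophage markers to 0.66 for cytosolic ribosomal proteins, and the macrophage cross lies at -0.61.

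Losses of more than 2-fold were further along at 4 h than gains of more than 0.5 in log2. Among the 1151 genes more than 2-fold lower at 8 h, the median log2 fold change was -1.24 at 4 h and -1.72 at 8 h. The part of the 8 h change present at 4 h had a median of 67.8% (quartiles 53.1 and 83.4%). Among the 769 genes called higher by more than 0.5, it was 37.8% (quartiles 26.3 and 52.1%), from 0.24 at 4 h to 0.63 at 8 h. Klf genes had a median of -0.86 at 4 h and -1.06 at 8 h, immediate early genes -0.72 and -0.85, endothelial markers -1.47 and -2.28, and macrophage markers -1.20 and -2.28. Ribosomal protein genes had 0.17 and 0.66, and complex I 0.22 and 0.53. The 4 h and 8 h changes share the 0 h libraries and the genes were chosen on their 8 h change, so these are descriptions with no test. The cut for losses was larger than that for gains, abundance was not matched, and the 4 h values rest on 2 libraries.

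The KO course, measured in libraries not shared with WT, ran mostly in the same directions. In KO 5897 genes were called (44.6% of those tested), 2829 higher (21.4%) and 3068 lower (23.2%). Of the 6860 genes called in WT (51.9%), 6466 had the same sign in KO, 4631 were called in the same direction (67.5% of WT calls and 78.5% of KO calls) and 22 in the opposite one. Across genes the log2 fold changes correlated with r = 0.78, a description over genes, which are not independent replicates. A test of the difference itself called 687 genes (5.19%), with the KO change above the WT change in 247 (1.87%) and below it in 440 (3.33%). Single libraries moved that count by more than 1.5-fold: it was 437 without WT 8 h replicate 1, 445 without KO 0 h replicate 3 and 423 without KO 8 h replicate 2. The median size of the change of WT-called genes was 0.44 in WT and 0.32 in KO, a comparison tilted to WT because the genes were chosen there.

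Macrophage markers had the highest share of called differences among the 51 lists with at least 4 tested genes. All 20 were lower in WT and 12 were lower in KO (median -0.61), and the difference was called in 15 of 20. Adgre1, the F4/80 antigen, had -2.33 in WT and -0.07 in KO, a difference of 2.26 ± 0.43 (adjusted p = 0.000409 by edgeR). C1qa, a complement subunit made by macrophages, went from 6.09 ± 0.359 to 1.28 ± 0.274 CPM in WT and from 2.16 ± 0.193 to 1.7 ± 0.456 CPM in KO (SD, n = 3). The markers started lower in KO: their summed mean was 151 CPM in WT and 64.3 CPM in KO at 0 h, and 34.5 and 42.3 CPM at 8 h. All 25 endothelial markers were lower in WT, and 25 were lower in KO, with medians of -2.28 and -2.04 and a called difference in 3. Ribosomal protein genes rose in both, by a median of 0.66 in WT and 0.37 in KO, with the difference called in 36 of 83, 36 of them with the smaller gain in KO. Their summed mean at 0 h was 10247 CPM in KO and 8143 CPM in WT, and at 8 h 13420.3 and 12925 CPM. For Rpl29 the KO change was 0.35 against 1.04 in WT.

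**Figure D4:**
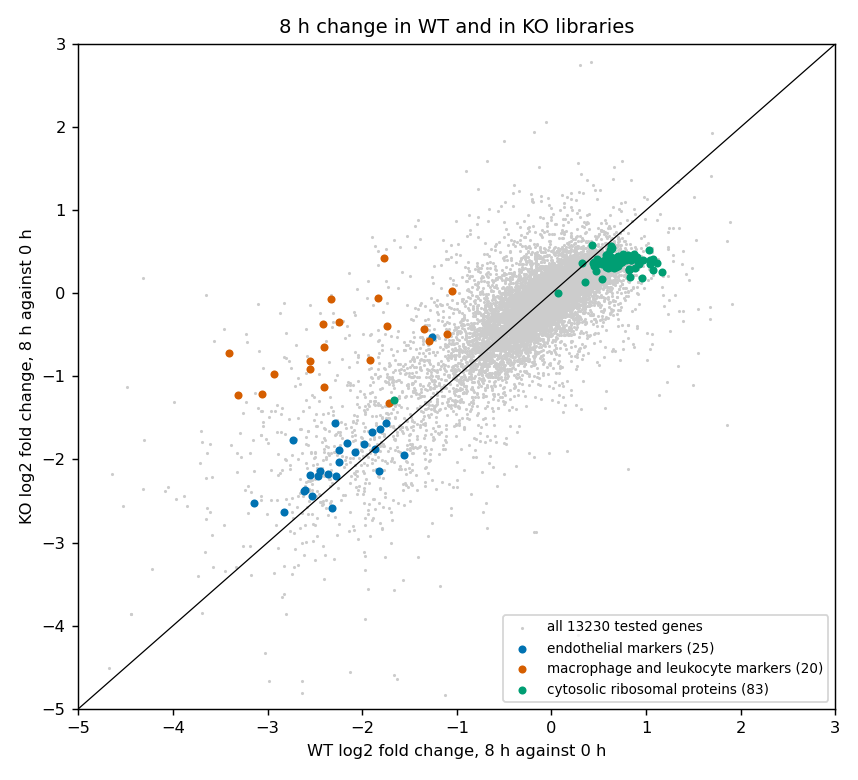
Log2 fold change at 8 h against 0 h in WT (x axis) and KO (y axis) for the tested genes, with the line of equal change; 9 genes lie outside the axes. All 20 macrophage markers lie above the line, and 80 of the 83 ribosomal protein genes lie below it.

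The change varied with transcript length and abundance across genes. Split into quintiles by the length of the representative transcript, 12015 protein-coding nuclear genes had median log2 fold changes of 0.26, 0.04, -0.08, -0.12 and -0.22 from shortest to longest. Of the shortest quintile (up to 1754 bases), 50.2% were called higher, and of the longest (from 5060 bases) 10.5%. The shortest genes stood above the longest in each of the 5 abundance quintiles: in the most abundant quintile the medians were 0.45 for the shortest and 0.05 for the longest, and in the least abundant quintile -0.17 and -0.82. By abundance the medians ran from -0.50 in the lowest quintile to 0.23 in the highest. Abundance was the mean over the WT libraries at 0 and 8 h, so the change itself enters that order. Exon number had no such order, with medians of -0.12, 0.05, 0.00, -0.03 and -0.09. KO medians ran the same way by length, from 0.18 to -0.14.

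The AU-rich heptamer TATTTAT, searched on the transcript strand with overlapping matches counted, went with smaller differences. Genes with 0, 1, 2 and 3 or more matches in the 3′ UTR had median log2 fold changes of 0.00, -0.10, -0.16 and -0.21 (numbers of genes 8454, 2264, 749 and 435). The share called higher was 29.4% with no match and 11.5% with 3 or more, and the share more than 2-fold lower was 8.66 and 12.6%. Long 3′ UTRs hold more matches. Within the shortest quintile of 3′ UTRs the medians were 0.17 without and 0.07 with a match, and within the longest quintile -0.17 and -0.18. These are descriptions over genes, with no test.

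**Figure D5:**
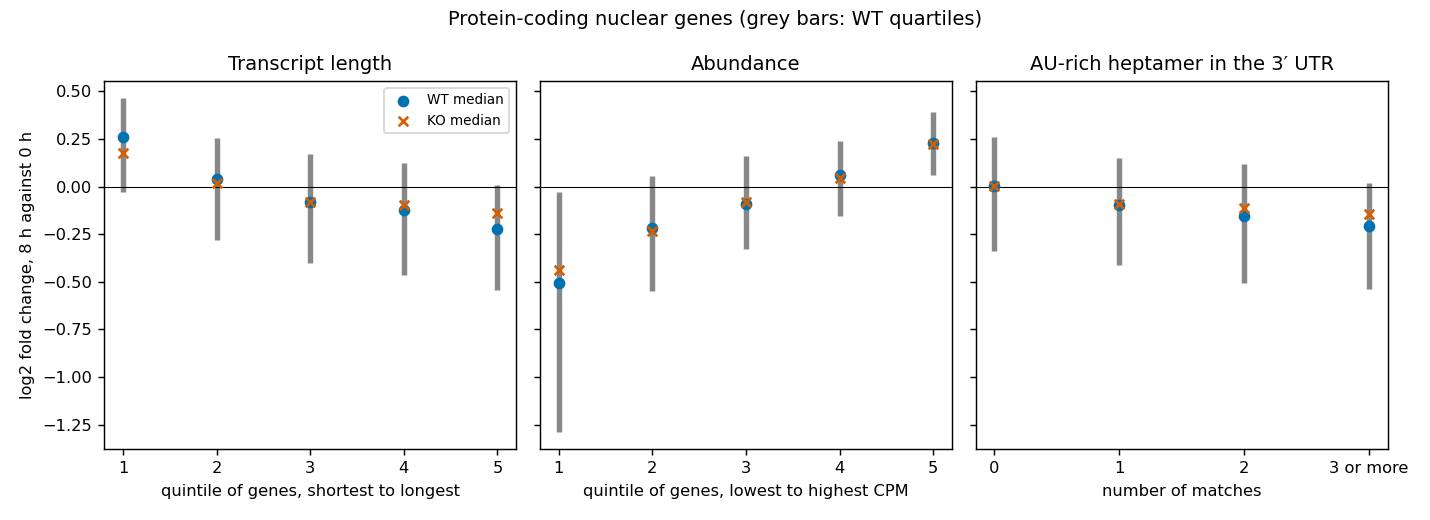
Median log2 fold change at 8 h against 0 h (y axis; points WT, crosses KO, grey bars WT quartiles) of protein-coding nuclear genes by quintiles of transcript length, quintiles of abundance, and number of AU-rich heptamer matches in the 3′ UTR. The median runs down with length from 0.26 to -0.22, up with abundance from -0.50 to 0.23, and down with matches from 0.00 to -0.21.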

How the data were processed

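Per the submitters' processing notes, STAR, featureCounts, DESeq2, limma and the GRCm38 build (mm10) were used by the authors. Versions and settings: not given in the sources used here. The authors deposited raw counts per gene for 17 libraries of total RNA (BGI, DNBSEQ) and a table of expression ratios, used only as an alternative. Per the labels, samples were grouped by genotype and hours after the drug. The gene lists and named genes were chosen with earlier results of these data known.

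Counts were fitted with edgeR 4.0.16 (R 4.3.3) over all 17 libraries in 6 groups, after filterByExpr (13230 genes) and TMM scaling, with the quasi-likelihood F test and Benjamini-Hochberg adjustment over all tested genes. The biological coefficient of variation was 5.28%. SE is the log2 fold change divided by the square root of F. Scripts were tested on simulated counts with as many genes raised as lowered, so scaling under uneven change was not checked. Genes were named by rule: among called genes with a mean log2 CPM of at least 3 and libraries that did not overlap, the 15 largest and 15 smallest fold changes, the 8 largest gains and losses in CPM, and in each of 52 lists the 2 lowest and the 1 highest called. From these a selection is described, and 1 gene is not reported here. Named outside the rule, after their values were seen, were Adgre1, C1qa, Csf1r, Cxcl2, Ier3, Egr1, Fos, Jun, Junb, Atf3, Gata4, Mef2a, Mbnl1, Mbnl2, Malat1, Nppb, Ryr2, Ttn, Ybx3 and mt-Co1. Alternatives were other scalings, filters, DESeq2 1.42.0, WT libraries alone, the replicate block and each library left out.

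Labels number the replicates without saying what a number shares. Over 6856 genes, deviations from the group means correlated between same-numbered WT libraries at 0 and 8 h (0.19, 0.13 and 0.13), each above 0.1. The values printed are from the fit without a block, and the blocked value is given where it ended a call. Over all tested genes these correlations were 0.01 to 0.04.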

Additional observations from a re-analysis of the deposited data

Results flagged for a closer look

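Of the 101 genes named above, 43 had an 8 h change that differed between the libraries labelled KO and those labelled WT. The test was edgeR's of the difference itself (adjusted p below 0.05 over 13230 genes, 5.19% of which were called). Most named genes were picked on their WT change, which enters the difference. Their share called is therefore not comparable with that of all tested genes. Of the 6860 genes called in WT, 589 had a called difference. The values in brackets are the KO minus the WT log2 fold change. Macrophage genes lost less share in KO, or did not lose it: F13a1 (2.69), Adgre1 (2.26), Cd163 (2.09), C1qa (1.90), Csf1r (1.85) and Cd68 (1.08). So did the endothelial genes Tie1 (0.96), Vwf (0.74) and Cd93 (0.64). Further genes with a KO change above the WT change were Fos (0.28), Slc38a2 (0.32), Socs3 (0.47), Neat1 (0.55), Ltbp4 (0.61), Egr1 (0.64), Gadd45g (0.76) and Zfp36 (0.84). Genes that gained share in WT and gained less, or did not gain, in KO were mt-Tp (-0.73), Rpl29 (-0.69), Pdcd5 (-0.59), Rpl36 (-0.56), Rpl27 (-0.51), Eif1 (-0.50), Mrps21 (-0.49), Anapc13 (-0.46), Gadd45a (-0.45), Polr2f (-0.43), Tnnt2 (-0.43), Tpi1 (-0.39), Myl2 (-0.36), Acaa2 (-0.34), Tpm1 (-0.31), mt-Rnr1 (-0.28), Ybx1 (-0.26), Ybx3 (-0.26), Acta1 (-0.21) and Hopx (-0.21). Genes that lost share in WT and lost more in KO were Angptl4 (-0.76), Txnip (-0.69), Rrad (-0.45), Arrdc3 (-0.42), Jph2 (-0.27) and Xirp1 (-0.25). Egr1 and Fos differed in sign, with WT changes of -0.34 and -0.07 and KO changes of 0.29 and 0.21. The macrophage marker level at 0 h differed between the genotypes, as given above, and its part in these differences was not tested. With the replicate number as a block, 41 of the 43 stayed called. The differences of Neat1 (adjusted p = 0.0759 by edgeR) and mt-Tp (adjusted p = 0.0757 by edgeR) did not. No group held 4 or more libraries, so single libraries were not screened for outlying values.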

How the results depend on the processing

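Scaling set the direction of small changes, since it shifts all genes together. Against the TMM values, the median gene moved by -0.21 with library size alone, -0.26 with the library size of nuclear genes, -0.66 with ribosomal protein scaling, -0.20 in the deposited ratios and 0.03 with RLE factors. Library size alone gave 1279 genes higher, 5887 lower and 26 more than 2-fold higher. Nuclear library size gave 1043, 6737 and 20. Ribosomal protein scaling gave 11318 called, 50 higher, 11268 lower, 3503 more than 2-fold lower, 5 more than 2-fold higher and 2961 differences between KO and WT. Of all calls, 48.3% were higher under TMM, 17.8% with library size alone, 13.4% with nuclear library size, 0.442% with ribosomal protein scaling and 19.6% in the deposited ratios. Some named genes turned in sign and were called under TMM, in the other setting or in both. Genes called in neither are not listed. Those listed, with their log2 fold change, were Acaa2 (-0.001), Acta2 (-0.49), Hopx (-0.19), Kcnip2 (-0.28), Maff (-0.35), Mb (-0.031), Mbnl2 (-0.58), Mef2a (-0.62), Mrpl11 (-0.50), Myh6 (-0.29), Ndufa9 (-0.40), Nppa (-0.34), Rps27a (-0.35), Ryr2 (-0.57), Ybx3 (-0.022), mt-Co1 (-0.58) and mt-Nd4 (-0.34) with ribosomal protein scaling, Acta2 (-0.097), Mbnl2 (-0.18), Mef2a (-0.22), Mrpl11 (-0.10), Ndufa9 (-0.004), Ryr2 (-0.17) and mt-Co1 (-0.18) with nuclear library size, Acta2 (-0.047), Mbnl2 (-0.13), Mef2a (-0.17) and Mrpl11 (-0.048) with library size alone, and Acta2 (-0.077) and Mrpl11 (-0.057) in the deposited ratios. Of these, Mbnl2, Mef2a, Ryr2 and mt-Co1 were not called under TMM. Acaa2, Mb and Ybx3 were not called with ribosomal protein scaling, nor was Ndufa9 with nuclear library size. Acta2 and Mrpl11 were called with ribosomal protein scaling and in none of the other 3 settings. With ribosomal protein scaling the list medians that reversed were sarcomere and Z disc (-0.33), calcium handling (-0.50), complex I (-0.14), complexes II to V, nuclear (-0.16), mitochondrial ribosomal proteins (-0.28), cytosolic ribosomal proteins (-0.004), translation factors (-0.30), proteasome (-0.32), fatty acid uptake and oxidation (-0.23), glycolysis and glycogen (-0.35), pyruvate entry and citric acid cycle (-0.17), creatine kinase and ATP export (-0.26), heat shock and cochaperones (-0.48), antioxidant and metallothionein (-0.38), ubiquitin and deubiquitin enzymes (-0.41), atrial markers (-0.45), histone cluster genes (-0.36), lysosome and autophagy (-0.60), unfolded protein and integrated stress response (-0.64) and mitochondrial mRNAs (-0.66). With nuclear library size they were calcium handling (-0.098), heat shock and cochaperones (-0.080), ubiquitin and deubiquitin enzymes (-0.007), atrial markers (-0.053), lysosome and autophagy (-0.20), the unfolded protein list (-0.24) and mitochondrial mRNAs (-0.26). With library size alone they were calcium handling (-0.046), heat shock and cochaperones (-0.027), atrial markers (-0.001), lysosome and autophagy (-0.15), the unfolded protein list (-0.185) and mitochondrial mRNAs (-0.20). With RLE factors the medians of MBNL, CELF, RBFOX and cardiac splicing (0.021) and of cyclins, replication and mitosis (0.011) turned positive. Requiring 1 CPM in 3 libraries left 33 genes more than 2-fold higher, with fewer genes tested. Leaving out 1 library at a time gave 6236 to 6542 genes called in WT, 3044 to 3189 higher, 3158 to 3353 lower, 1089 to 1149 more than 2-fold lower, 50 to 75 more than 2-fold higher and 423 to 817 differences between KO and WT. With the replicate number as a block, 3313 genes were higher and 3543 lower, and among the 8 h changes in WT of the genes named above it ended the call of mt-Nd4. Of 43 named differences between KO and WT it ended those of mt-Tp and Neat1. Besides the genes whose sign turned, library size alone and the deposited ratios ended the calls of Maff, Myh6, Ndufa9, Nppa, Rps27a and mt-Nd4, nuclear library size these except Ndufa9, the deposited ratios also that of Kcnip2, and ribosomal protein scaling those of Acta1, Gadd45a, Hspb1, Mt2, Myl2, Polr2f, S100a1, Tpi1, Tpm1, Ybx1 and mt-Tp. DESeq2 called 478 differences between KO and WT. Limits: values are relative levels, so total RNA loss was not measured. Genes under about 1 CPM rest on few counts. The drug, hours in culture and changes in cell makeup cannot be told apart.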
